A study of Mus musculus with 12 samples.

Results

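The 2 mature arms of miR-21a, the guide arm mmu-miR-21a-5p and the passenger arm mmu-miR-21a-3p (mmu marks mouse and is left out below), were followed across 12 mouse liver libraries. They were taken by name from a table of 1929 mature miRNAs, and both passed the filter on low counts that left 607 for testing. All 12 C57BL/6 mice received carbon tetrachloride (CCl4), a liver toxin used to produce hepatic fibrosis, by intraperitoneal injection. In addition, 6 of them were given Pien Tze Huang (PZH), a traditional Chinese medicine, by daily intragastric administration, and 6 were given double distilled water by the same route. No mice without CCl4 are part of the series, so each value below is a level in injured liver. No source used here gives the age or sex of the mice, the doses or the length of treatment. Each library holds the small RNA of 1 liver sample, a mixture of cell types, so fewer cells of a type and less RNA per cell cannot be told apart.

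A miRNA hairpin is cut by Drosha and Dicer into a short duplex with a 5p and a 3p strand. The strand that Argonaute keeps is the guide, which pairs with messages through its seed, while the other strand, the passenger, is mostly degraded. In liver, miR-21 is known for its induction by injury, in hepatocytes, activated stellate cells and inflammatory cells, by way of STAT3, AP-1 and TGF-beta signalling. Reported targets of the guide include Pdcd4, which restrains translation, and Smad7, which restrains TGF-beta signalling.

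The sequences of both arms and of 2 relatives are shown because the seed sets which messages a strand can pair with, and because near-identical sequences can share reads. They come from RefSeq on GRCm38.p6, written from the 5′ end with the seed, bases 2 to 8, in capitals.
miR-21a-5p: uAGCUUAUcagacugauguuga
miR-21a-3p: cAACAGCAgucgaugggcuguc
miR-21b: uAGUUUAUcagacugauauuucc
miR-21c: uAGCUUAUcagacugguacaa
The arms have different seeds, and the longest run of bases that they share is 4. The guide starts with U and has a GC content of 36.4%, and the passenger starts with C and has 59.1%. Of the 1679 mature mouse miRNAs in the RefSeq table, miR-21c alone shares the guide's seed, and none shares the passenger's; miR-590, listed among the relatives, has no entry there and was not compared. Counting from 1 at the 5′ end of miR-21a-5p, miR-21b carries C4U, inside the seed, and G18A, G21U and A22C outside it. In miR-21c the substitutions are A16G, G18A, U19C, U20A and G21A, and its first 15 bases are those of miR-21a-5p.

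The hairpin of both arms lies on chromosome 11 from 86584067 to 86584158, on the minus strand of GRCm38, with the guide at 86584120 to 86584141 and the passenger at 86584082 to 86584103. In the GENCODE annotation it falls inside exon 12, the last exon, of Vmp1, an autophagy gene on the same strand, within the 3′ untranslated part of that exon. The hairpin of miR-21b spans positions 29636744 to 29636851 of chromosome 3, inside an intron of Egfem1 and on its strand. That of miR-21c lies on chromosome 8 from 128278148 to 128278225, where no other annotated gene overlapped it.

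Library totals ranged from 4961913 to 20211784 counts with water and from 6065480 to 10436478 with PZH (two-sided exact permutation p = 0.290 for the difference in means, n = 6 each). The hepatocyte miRNA miR-122-5p was the second most abundant miRNA in all 12 libraries; it marks the tissue as liver. Water replicate 2, the deepest library, stood apart from the other water libraries in several miRNAs. The fits of both arms and of their ratio, and the counts called in the lists, were repeated without it. The SDs within groups and the likeness to other miRNAs were not, so they may rest on it. Levels are CPM, counts scaled to a common library size, after TMM scaling, and log2 fold changes are PZH against water.

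The guide arm miR-21a-5p was the most abundant miRNA in each of the 12 livers, and its mean with PZH was within the spread of the water group. In the water group it stood at 183289, 211303, 185773, 205919, 179943 and 178805 CPM in replicates 1 to 6. In the PZH group the values were 186162, 189360, 182905, 188313, 164346 and 222233 CPM. The groups overlapped fully: both the lowest library (PZH replicate 5) and the highest (PZH replicate 6) belonged to the PZH group, and all 6 water livers lay between them. The means were 190839 ± 14088 CPM in the water group and 188886 ± 18751 CPM in the PZH group (SD over 6 mice each; edgeR gave a log2 fold change of -0.01 with an SE of 0.07 and an adjusted p of 0.923). The 95% interval of the log2 fold change ran from -0.17 to 0.14. The sign turned with the scaling (0.02 with RLE and 0.03 by total count), with the value close to 0 each time.

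As a share of all miRNA counts, miR-21a-5p ranged from 17.86% (Wilson 95% interval 17.84 to 17.89) in water replicate 3 to 20.07% (20.05 to 20.08) in water replicate 2. With PZH it ranged from 17.70% (17.67 to 17.72) in replicate 5 to 20.81% (20.78 to 20.83) in replicate 6. These intervals cover counting error only, and they are far narrower than the differences between mice. The reads carry no molecular identifiers, so copies of 1 molecule count as separate reads and the intervals may be too narrow even for that error. The mean share was 0.361 percentage points higher with PZH (two-sided exact permutation p = 0.556, n = 6 each). This difference came down to 0.0247 percentage points without PZH replicate 6 and went up to 0.646 without PZH replicate 5 (exact permutation p = 0.955 and 0.294). Relative to miR-122-5p, the next most abundant miRNA, miR-21a-5p had 1.84 ± 0.190 times as many counts in the water group and 1.77 ± 0.203 times as many in the PZH group (SD of 6 livers; p = 0.509, two-sided exact permutation test).

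The passenger arm miR-21a-3p fell with PZH, from a level far below that of the guide. In the water group it stood at 231, 136, 178, 257, 196 and 209 CPM in replicates 1 to 6. In the PZH group the values were 71.9, 119, 138, 117, 131 and 118 CPM. The groups touched at a single point: water replicate 2 was just below PZH replicate 3, and in 35 of the 36 pairings of a PZH with a water mouse the PZH value was lower. Of all tested miRNAs, 10% had groups that did not overlap at all, and miR-21a-3p was not among them. The means were 201 ± 42.2 and 116 ± 23.0 CPM (SD over 6 mice each; edgeR gave a log2 fold change of -0.80 with an SE of 0.16 and an adjusted p of 0.00281), or 1.74-fold lower with PZH. The 95% interval of the log2 fold change ran from -1.15 to -0.45. At the same threshold of an adjusted p under 0.05, 21.3% of the 607 tested miRNAs were called, 11.4% in the direction of a fall and 9.88% in that of a rise.

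**Figure D1:**
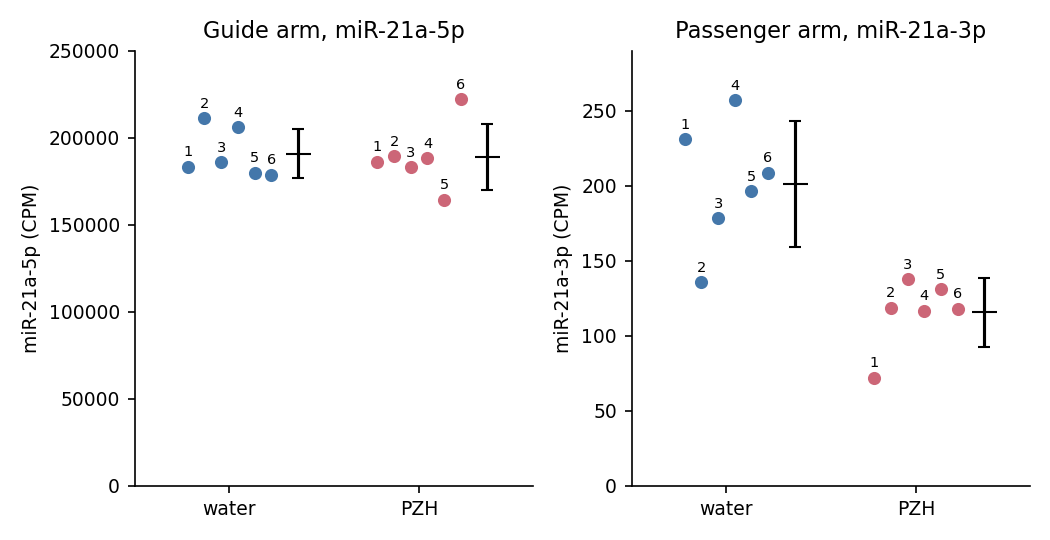
Level of miR-21a-5p (left axis, CPM) and miR-21a-3p (right axis, CPM) in each library, with replicate numbers over the points and the group mean and SD beside them. The guide overlaps fully between groups, while for the passenger only water replicate 2, at 136 CPM, lies among the PZH libraries.

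The lowest passenger level of the water mice was that of water replicate 2, and the lowest of all was that of PZH replicate 1. The highest of all was that of water replicate 4. Without water replicate 2 the log2 fold change was -0.89 (edgeR adjusted p = 0.000597). The groups then no longer overlapped, which follows from leaving out the only water library within the PZH range. How many of all tested miRNAs separate without that library was not counted. Without PZH replicate 1 the log2 fold change was -0.69 (edgeR adjusted p = 0.00421), and without water replicate 4 it was also -0.69 (edgeR adjusted p = 0.00912). Water replicate 2 was the library with the largest total, and PZH replicate 1 the PZH library with the smallest, and the part of depth in the result was not tested. The passenger was counted 1045 to 3373 times per water library and 467 to 1459 times per PZH library. In the shallowest case counting error alone comes to 4.63% of the value, against a spread between mice of 20.98% of the mean with water and 19.9% with PZH.

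The balance of the arms, which needs no scaling between libraries, moved further towards the guide with PZH. Of all miR-21a counts, the passenger made up 0.126%, 0.0641%, 0.0959%, 0.125%, 0.109% and 0.117% in water replicates 1 to 6. In PZH replicates 1 to 6 its share was 0.0386%, 0.0627%, 0.0751%, 0.0619%, 0.0795% and 0.0530%. All water libraries except replicate 2 lay above all PZH libraries, and replicate 2 lay in the middle of the PZH range. Its Wilson 95% interval of 0.0617% to 0.0666% overlapped those of PZH replicate 2 (0.0590% to 0.0666%) and PZH replicate 4 (0.0584% to 0.0657%). The group means were 0.106% ± 0.0233 and 0.0618% ± 0.0149 (SD, n = 6; two-sided exact permutation p = 0.00649).

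**Figure D2:**
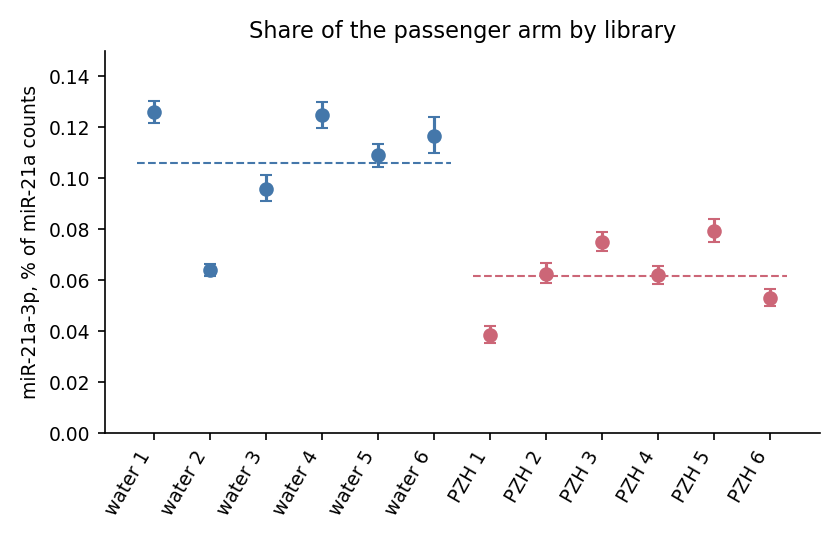
Passenger arm as a percentage of all miR-21a counts in each library, with Wilson 95% intervals for counting error and dashed lines at the group means of 0.106% (water) and 0.0618% (PZH). Of the water libraries, replicate 2 alone lies within the PZH range.

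Expressed as guide counts per passenger count, the ratio was 794, 1559, 1042, 801, 916 and 857 in water replicates 1 to 6, and 2590, 1595, 1330, 1614, 1256 and 1884 in PZH replicates 1 to 6. A ratio of counts is comparable between libraries made in the same way, but it need not equal the ratio of molecules, since the 2 sequences can be ligated and amplified unequally. To place the change beside other hairpins, the log2 ratio of 5p to 3p was fitted with limma over the 137 hairpins with a mean of at least 20 counts in both arms. For miR-21a its mean went from 9.91 to 10.70, a change of 0.78 (SE 0.20, 95% interval 0.35 to 1.21, limma adjusted p = 0.0388), or 1.72-fold (1.27 to 2.32) in the ratio. Of the 137 hairpins, 8.03% were called at an adjusted p under 0.05, 5.84% in the direction of a higher ratio of 5p to 3p and 2.19% in the other.

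The size of the change in arm balance held in each setting tried, between 0.65 and 0.92, but its call did not. The p stayed under 0.05 in 11 of 19 alternatives, 1 of them the unadjusted exact permutation test of miR-21a alone, and the adjusted p reached 0.0905 without water replicate 1, the least favourable case. Without 1 of water replicates 1, 3, 4 and 5 or PZH replicates 1 and 6 the call ended, with changes of 0.72, 0.80, 0.73, 0.77, 0.65 and 0.74 in that order. Without water replicate 2 the change was 0.92 (limma adjusted p = 0.00794). The count of hairpins called ranged from 3 to 14 when libraries were left out. In an exact permutation test of the miR-21a ratio alone, p was 0.00649, unadjusted.

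**Figure D3:**
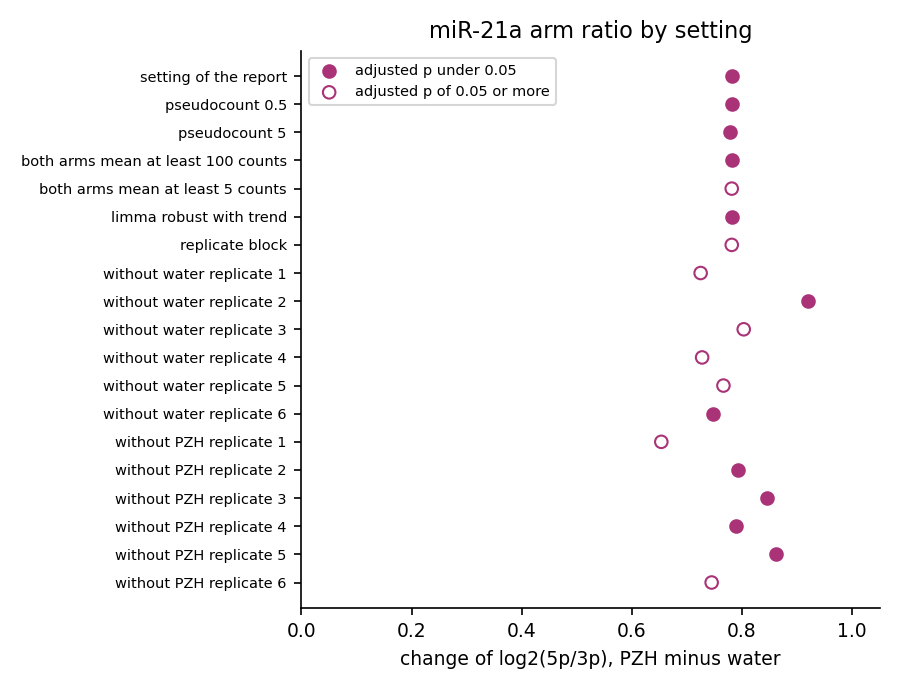
Change of the log2 ratio of miR-21a-5p to miR-21a-3p, PZH minus water, in each setting of the limma fit, where filled points have an adjusted p under 0.05 and open points do not. All values are positive and lie between 0.65 and 0.92, while the call ends in 8 of the settings drawn.

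Among the named hairpins, chosen as the 5 with the smallest p and the 5 with the largest ratio of 5p to 3p, those with a smaller p than miR-21a included miR-335, at the imprinted Mest locus, and miR-877, a mirtron, which is a hairpin released by splicing. The ratio of miR-335 changed by -1.21 (limma adjusted p = 0.00496) and that of miR-503 by -0.67 (limma adjusted p = 0.00595), both towards the 3p arm. Towards the 5p arm moved miR-434 (1.15, limma adjusted p = 0.00595), miR-877 (0.98, limma adjusted p = 0.0301) and miR-744 (0.52, limma adjusted p = 0.0388). Only 3 of the tested hairpins with the 5p arm in excess had a larger excess than miR-21a, with a mean log2 ratio of 10.31. These were miR-99a (12.65), let-7g (12.20) and miR-146a (10.52), with miR-146b (10.18) just below. The difference in the ratio, PZH minus water, was 0.09, 0.44, -0.015 and 0.07 in these hairpins (limma adjusted p = 0.793, 0.278, 0.977 and 0.845).

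Less abundant arms of other hairpins moved in both directions. Among the less abundant arms of the 137 hairpins, edgeR called 11 higher and 10 lower, with a median log2 fold change of -0.03, and among the more abundant arms 22 higher and 23 lower, with a median of 0.03. Over all 607 tested miRNAs 9.88% were called higher and 11.4% lower. A minor arm that fell beside a major arm with no call was found in 4 hairpins, namely miR-21a, miR-27a, miR-122b and miR-3082. Of these only miR-21a was called for its arm ratio (limma adjusted p = 0.0761 for miR-27a, 0.278 for miR-122b and 0.101 for miR-3082). As in miR-21a, the major arm started with U in 59 of 122 hairpins with a RefSeq sequence, and, counted separately, the minor arm with C in 40 of 117.

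**Figure D4:**
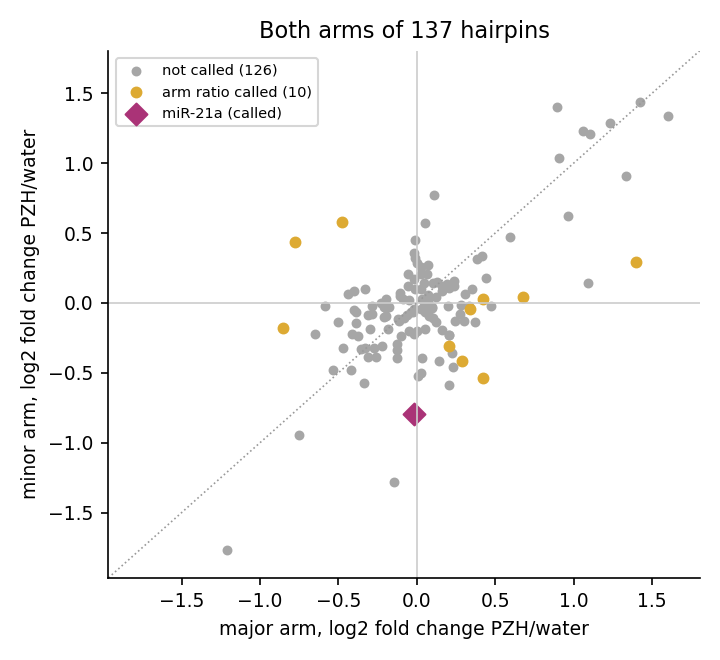
Log2 fold change (PZH against water) of the more abundant arm (horizontal axis) and the less abundant arm (vertical axis) of 137 hairpins, with equal change on the dotted line and hairpins whose arm ratio was called in yellow. The diamond of miR-21a lies at -0.01 and -0.80, far below the dotted line.

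The arms also differed in how evenly they were held among mice of a group. The SD of log2 CPM within groups was 0.12 for miR-21a-5p and 0.33 for miR-21a-3p. Of the 342 miRNAs that averaged 10 CPM or more, 48 had a smaller SD than the guide and 265 a smaller SD than the passenger, and the median was 0.21. Among the 71 miRNAs within 2-fold of the passenger's mean level 55 had a smaller SD. Within 2-fold of the guide's level there were only 2, the guide included, so its SD could not be compared at a like level. The highest and lowest of the 12 livers differed 1.35-fold in guide level and 3.57-fold in passenger level.

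**Figure D5:**
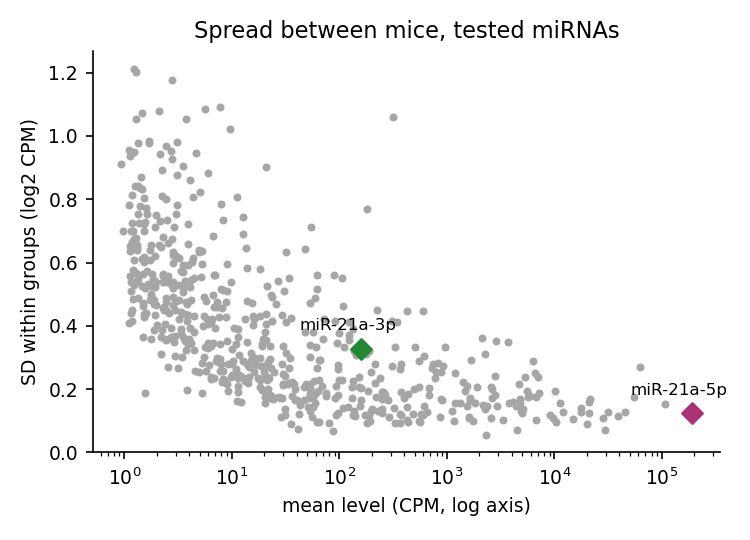
SD of log2 CPM within groups (vertical axis) against mean CPM (horizontal log axis) for the 607 tested miRNAs. The guide arm lies low in the cloud with an SD of 0.12, and the passenger arm, at 0.33, above most miRNAs of its level.

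Within groups no covariation of the arms from mouse to mouse was detectable with 6 mice. In log2 CPM, Pearson's r between the arms was -0.31 in the water group (exact permutation p = 0.549; Spearman's rho -0.26, exact permutation p = 0.658) and -0.12 in the PZH group (exact permutation p = 0.688; rho -0.43, exact permutation p = 0.419). The adjusted p over these 2 relations was 0.688 for both in the exact permutation test, with n = 6 in each group. Without the 2 libraries farthest from the median guide level, r was -0.33 with water and -0.14 with PZH. With scaling by total count r in the PZH group was -0.62 (exact permutation, adjusted p = 0.361), so its size rests on the scaling. With that scaling and without the 2 farthest libraries, r turned to 0.76 in the water group and was -0.75 in the PZH group (exact permutation p = 0.208 and 0.250, unadjusted, n = 4), so neither the sign with water nor the size with PZH was stable.

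The relatives of miR-21a were rare in these livers and did not pass the test. The relative miR-21c, which has the guide's seed, was counted 60 to 404 times per library and averaged 14.4 ± 3.82 CPM in the water group and 17.2 ± 5.41 CPM in the PZH group (SD over 6 mice each; edgeR log2 fold change of 0.24 at an adjusted p of 0.4995). Its counts came to between 0.00528% and 0.00996% of those of miR-21a-5p with water and between 0.00625% and 0.0129% with PZH. With 15 leading bases in common, reads of miR-21c and miR-21a-5p are uncertain where they are short, and no source used here says how such reads were assigned. The level of miR-21b was 2.41 ± 0.732 CPM in the water group and 2.60 ± 1.84 CPM in the PZH group (SD over 6 mice each; edgeR log2 fold change of 0.14 at an adjusted p of 0.892). Listed with them, miR-590-5p and miR-590-3p had at most 3 and 4 counts in any library and were not tested.

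The miRNAs whose log2 CPM followed each arm most closely over the 12 libraries were different for the 2 arms. These correlations are descriptions over libraries that share their scaling and the group difference. For the guide the highest values of Pearson's r, out of 341 miRNAs that averaged 10 CPM or more, were those of miR-340-3p (0.75), the hepatocyte miRNA miR-194-5p (0.64), miR-7a-5p (0.63), miR-1839-5p (0.63) and miR-148b-3p (0.59) (edgeR adjusted p from 0.185 to 0.944). After centring on the group means they were miR-340-3p (0.80), miR-194-5p (0.73), miR-148b-3p (0.71), miR-30a-5p (0.65) and miR-7a-5p (0.63).

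For the passenger the highest values were those of the collagen repressors miR-29a-3p (0.94) and miR-29b-3p (0.90), of miR-126b-5p (0.93) and the endothelial miR-126a-3p (0.92), and of miR-378c (0.90). All 5 were called lower with PZH, beside 11.4% of all 607 tested miRNAs, with log2 fold changes from -0.48 to -0.21, against -0.80 for the passenger. They were chosen for following the passenger over both groups, so the choice itself favoured miRNAs that fell, and their calls are no separate result. Centred on the group means, the closest were miR-126b-5p (0.86), miR-126b-3p (0.84), miR-29a-3p (0.83), miR-142a-5p (0.82), a leukocyte miRNA, and miR-29b-3p (0.80). The hairpin of miR-126b lies opposite that of miR-126a, and since the use of strand in counting is not given, reads of the 2 cannot be told apart here. Between the arms themselves r was -0.06 over all libraries and -0.20 after centring.

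Other miRNAs linked to the same processes were read from fixed lists, whose counts stand beside 9.88% called higher and 11.4% called lower of all 607 tested miRNAs. Of 16 miRNAs reported to promote fibrosis, miR-21a left out, 1 rose and 1 fell, with a median log2 fold change of -0.0029 against -0.03 for all tested miRNAs. These were miR-221-3p (0.34, edgeR adjusted p = 0.0172), which favours growth, and miR-503-5p (-0.85, edgeR adjusted p = 1.42e-05), which restrains cyclins. Of 9 tested miRNAs induced by inflammation, as miR-21a is, 1 rose, again miR-221-3p, and 2 fell, with a median of 0.03. The 2 were the myeloid miR-223-3p, from 943 ± 119 to 629 ± 141 CPM (SD over 6 mice each; edgeR log2 fold change of -0.58 at an adjusted p of 0.00583), and miR-146a-5p, a brake on NF-kB signalling, from 8135 ± 934 to 5872 ± 1287 CPM (SD over 6 mice each; edgeR log2 fold change of -0.47 at an adjusted p of 0.0130). Of 14 miRNAs reported to restrain fibrosis, 10 fell by edgeR and 5 by DESeq2, with a median of -0.30. The 4 with the smallest p were miR-335-5p (-0.77), miR-29c-3p (-0.40), miR-378a-3p (-0.33) and miR-30a-5p (-0.31). These lists were drawn up with earlier results of the same data known, so their counts are no independent evidence.

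Several cell types of the liver hold miR-21a, and their marker miRNAs stand beside the fall of the passenger as follows, again against 9.88% called higher and 11.4% lower of all tested miRNAs. Both arms of the endothelial miR-126a fell by edgeR (DESeq2 and limma-voom each called 1 of them), and their summed level lay between 12863 and 17096 CPM with water and between 10272 and 13899.8 CPM with PZH. For miR-126a-3p taken by itself the groups did not overlap. The same held for 10% of all tested miRNAs, among them the listed miR-455-3p, miR-29c-3p and miR-503-5p. The low end with water was replicate 2, without which the endothelial sum started at 15388 CPM and the groups no longer overlapped. This follows from leaving out the only water library that overlapped. The share of all miRNAs whose groups separate without that library was not counted. Of 8 leukocyte miRNAs 2 fell, miR-223-3p and miR-146a-5p, and 1 rose, miR-342-3p, at 14094 to 17829.7 against 11135 to 16895 CPM in sum. The 2 that fell are those of the inflammation-induced list, so they are no separate result. Of 9 hepatocyte miRNAs 4 fell, miR-455-3p, miR-802-5p, miR-193a-3p and miR-101a-3p, and the list summed to 227225 to 262881 against 207172 to 270347 CPM. Of these, miR-101a-3p also stands in the fibrosis-restraining list. The members among the 10 most abundant miRNAs, miR-122-5p (0.05), miR-192-5p (-0.20), miR-194-5p (-0.14) and miR-148a-3p (0.004), were not called (edgeR adjusted p from 0.169 to 0.971). Of 6 epithelial and biliary miRNAs 3 fell, miR-375-3p, miR-200c-3p and miR-141-3p, all highest in water replicate 2 and none of them called by limma-voom (0 calls, with 3 at an unadjusted edgeR p under 0.05), at 938 to 2218 against 865 to 1248 CPM. Without that library the water sum reached 1160 CPM, miR-375-3p (-1.27, edgeR adjusted p = 0.0123) and miR-200c-3p (-0.53, edgeR adjusted p = 0.0390) were still called, and miR-141-3p (-0.48, edgeR adjusted p = 0.0831) was not. The mesenchymal miRNAs summed to 64868 to 94280.4 against 54213 to 94679.5 CPM, and erythroid miRNAs to 3661 to 5759 against 3237 to 5502 CPM. Most of the mesenchymal sum was miR-143-3p, at a mean of 62656 CPM with water and 61879 CPM with PZH, so the sum mainly reads that miRNA. Of the 8 tested mesenchymal miRNAs and the 4 erythroid ones edgeR, DESeq2 and limma-voom each called 0, while 1 of each list had an unadjusted p under 0.05. Without water replicate 2 edgeR also called the erythroid miR-451a (-0.40, adjusted p = 0.0281) and the leukocyte miR-142a-3p (-0.40, adjusted p = 0.0251) lower, and the mesenchymal sum with water reached 75972 CPM at most. The counts called lower in the hepatocyte and the fibrosis-restraining list, 4 and 10, were the same without it. With all 12 libraries the summed ranges of the 2 groups overlapped in each of these lists, and no listed miRNA found in the table was at 0 in all libraries. The part of cell composition in the fall of miR-21a-3p was not tested.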

How the data were processed

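Small RNA from the liver of 12 mice was sequenced, 1 library per mouse by the titles. Per the labels' protocols, Trizol was used for extraction and the TruSeq kit for small RNA for the libraries. The authors deposited raw counts of 1929 mature miRNAs with no normalization. The submitters' processing notes name cutadapt, FastQC, BWA, DESeq2 and GRCm38. What counted the reads, whether strand was used and how reads matching several miRNAs were treated is not stated in the labels or the table. No cell of the table holds the value 1.

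Counts were compared by edgeR 4.0.16 (quasi-likelihood, R 4.3.3) over all 607 miRNAs left by its default filter, after TMM scaling, with Benjamini-Hochberg adjustment. Log2 ratios of 5p to 3p counts (pseudocount 1) were compared with limma 3.58.1. Single values were compared with two-sided exact permutation tests. Each SE of a log2 fold change is its size divided by the root of the F statistic. Log2 CPM for spread and likeness used a prior count of 2. The fits were tested on simulated data. Alternatives were other scalings and filters, DESeq2 1.42.0, limma-voom, robust edgeR, other pseudocounts and count minimums, the replicate number as a block, and each library left out.

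Same-numbered libraries are not said to share anything, and their deviations from the group means correlated between -0.15 and 0.08, so no pairing was used. The p-values set the group difference against the spread within groups of these 12 samples. No label says whether mice were housed or processed in batches, and a batch that followed the groups could not be told apart from PZH.

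The members and lists were chosen with earlier results of these data known. Named were both arms, their relatives, the 10 most abundant miRNAs, the 5 miRNAs most like each arm, the 5 hairpins with the smallest p and the 5 with the largest ratio, and from each list at most the 4 members of smallest p. Positions come from RefSeq GRCm38.p6 and GENCODE M21.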

Additional observations from a re-analysis of the deposited data

Results flagged for a closer look

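The level of miR-21a-3p in PZH replicate 1, at 71.9 CPM, lay far below the next PZH library, at 117 CPM. In this library the passenger was counted 467 times, so counting error comes to 4.63% of the value, and its guide, at 186162 CPM, was in the middle of the range. Without it the log2 fold change was -0.69 (edgeR adjusted p = 0.00421).

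Water replicate 2 lay apart from the other water mice in several miRNAs named beside miR-21a. It was the highest in miR-141-3p (299 CPM), miR-200a-3p (996 CPM), miR-200c-3p (189 CPM), miR-375-3p (26.6 CPM), miR-143-3p (80859 CPM) and miR-145a-3p (1791 CPM). It was the lowest in miR-126a-5p (3735 CPM), miR-22-3p (16678 CPM) and miR-335-5p (732 CPM). It was also the lowest water library in miR-21a-3p (136 CPM against 178 CPM in the next) and the highest in miR-21a-5p (211303 against 205919 CPM). Water replicate 4 was the highest in miR-155-5p, at 292 CPM against 223 in the next. In all, 11 of 128 groups of 6 values examined held a library this far apart. The cutoff is set for about 1 in 20 by chance in independent groups of normal values. These groups share their libraries, and most of the 11 are water replicate 2, so no excess over chance can be read from the count.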

How the results depend on the processing

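The fall of miR-21a-3p kept its direction and its call in all 22 alternatives (log2 fold change -0.89 to -0.69, adjusted p 0.000127 to 0.0149). The share of miR-21a-3p in miR-21a counts was lower in all 13 alternatives (-0.0526 to -0.0395 percentage points, exact permutation p 0.00216 to 0.0313, unadjusted). That share is made of the same counts as the arm ratio, so it is no separate result. The value of miR-21a-5p stayed near 0 without a call and turned positive with RLE scaling (0.021), total-count scaling (0.027), TMM without the 10 most abundant miRNAs (0.038), all miRNAs kept (0.015), a floor of 10 CPM in 6 libraries (0.070) and DESeq2 (0.030); with libraries left out it ranged from -0.070 to 0.038. Its share of counts differed by 0.0247 to 0.646 percentage points without 1 library. The change in arm ratio lost its call, at 0.78, with a minimum of 5 counts per arm (adjusted p = 0.0677) and with the replicate number as a block (adjusted p = 0.0729), and ranged from 0.65 to 0.92 with libraries left out. Hairpins called for their arm ratio numbered 11, against 19 with a minimum of 100 counts, 4 with a minimum of 5, 6 with the replicate block and 3 to 14 with libraries left out; the cause was not tested. Of all miRNAs, 129 were called (60 higher and 69 lower), 114 with the replicate block, which did not end the call of miR-21a-3p, and 71 higher and 54 lower with TMM without the 10 most abundant miRNAs; over all alternatives 94 to 144 were called.

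Same-numbered libraries are not known to be pairs, so the block is given as a check only: with it miR-21a-3p stood at -0.79 (adjusted p = 0.0149), miR-21a-5p at -0.018, and the share of miR-21a-3p differed by -0.0442 percentage points (exact sign-flip p = 0.0313, the smallest that 6 pairs can give). Between the arms across water mice, r turned from -0.31 to 0.76 with total-count scaling and without the 2 farthest libraries, a setting chosen after seeing the data, as was leaving water replicate 2 out of the list counts. By number, replicate 1 was the sole water library whose closest PZH library had the same number. Depth limits miR-21b, with 8 to 56 counts per library, more than either arm of miR-21a.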
